A study of Mus musculus with 5 samples.

Results

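The genes described here carry the creatine and calcium cycles that brown fat can run beside UCP1, the uncoupling protein of brown fat mitochondria. The list held 9 genes, 6 of the creatine cycle (Gatm, Gamt, Slc6a8, Ckb, Ckmt2 and Alpl), 2 of the calcium cycle (Atp2a2 and Ryr2) and the glycerol kinase gene Gyk, which the annotation names Gk. They were listed by function, with earlier results of these data known, and all 9 were found by symbol or synonym among 52022 genes with a matched transcript. All 9 also passed the filter on low counts, which kept 16450 genes.

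RNA was sequenced from interscapular brown adipose tissue (BAT) of 3 ATF4 BKO and 2 WT mice, with 1 library per mouse. ATF4 is a transcription factor of the integrated stress response. The ATF4 BKO mice carried floxed Atf4 alleles (Atf4 fl/fl) and the Tg(Ucp1-cre)1Evdr transgene. Its Ucp1 promoter is meant to limit Cre to adipocytes that express UCP1, so that other cells of the tissue keep Atf4. Which cells kept it cannot be seen in bulk tissue. The WT mice were Atf4 fl/fl animals without Cre, so both groups carried the floxed alleles and only one carried the transgene. All were labelled male on a C57Bl/6J background, aged 10 to 12 weeks, fed ad libitum, held for 7 days at 30 °C and then for 3 days at 4 °C, and no group was kept warm. The libraries held 24698337, 27578833 and 31558111 estimated read counts in ATF4 BKO mice 1, 2 and 3, and 30996438 and 32452751 in WT mice 1 and 2.

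In a futile cycle, ATP is spent with no net product, and the energy leaves as heat. In the creatine cycle, GATM and GAMT make creatine, the transporter SLC6A8 imports it, creatine kinases charge it to phosphocreatine, and the alkaline phosphatase encoded by Alpl (TNAP) removes the phosphate again. In the calcium cycle, the SERCA2 pump (Atp2a2) spends ATP to load the endoplasmic reticulum and the ryanodine receptor RYR2 lets the calcium out. Glycerol kinase spends ATP to return glycerol, freed by lipolysis, to triglyceride synthesis.

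The deleted gene was low in each library labelled ATF4 BKO. Atf4 had 739, 1478 and 697 estimated counts in ATF4 BKO mice 1, 2 and 3, against 9028 and 7674 in WT mice 1 and 2. The fitted difference was -2.82 ± 0.34 (log2 fold change, ATF4 BKO minus WT, ± SE), which left 14.2% of the WT level. Its edgeR quasi-likelihood adjusted p, with Benjamini-Hochberg adjustment over all genes tested, was 0.671, and its DESeq2 adjusted p was 9.72e-12. On the same libraries, edgeR thus did not call the deleted gene itself while DESeq2 did, and the reason was not tested. With 3 against 2 libraries, an exact two-sided permutation test cannot go below 0.2.

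The libraries stood apart in other ways as well. The library ATF4 BKO 1 had 4598 counts of Xist, the RNA made from the inactive X chromosome of females, against at most 7 in the other 4 libraries. Counts of Uty, Kdm5d, Eif2s3y and Ddx3y, all on the Y chromosome, summed to 34 in it, against at least 3284 in each of the others. The label male was therefore not matched by this library, and values of the X-linked members Slc6a8 and Gyk, and of Ckb, are given with and without it. WT 2 carried far more RNA of skeletal muscle genes than the others; the values stand beside Ckmt2. Sample names began with S1 for ATF4 BKO 1, ATF4 BKO 2 and WT 1 and with S2 for ATF4 BKO 3 and WT 2. The labels do not say what the prefix stands for, so differences within each prefix are given where they bear on a gene.

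Across the genome, edgeR called 1 of 16450 genes at an adjusted p under 0.05 (0.00608%). That gene was the calcium channel gene Cacna1i, which is not a member and was singled out after its values were seen. Cacna1i had 1521, 2775 and 2357 estimated counts in the ATF4 BKO libraries and 2 and 7 in the WT libraries, and it lies 29697 bases downstream of Atf4 on chromosome 15. DESeq2, the tool the study used, called 100 genes lower in ATF4 BKO (0.608%) and 21 higher (0.128%). Neither tool called any of the 9 members. An unadjusted edgeR p under 0.05 was found for 859 genes (5.22%) and for 2 members, Ckb and Ckmt2. Ckmt2 passed the count filter only through its WT libraries, so a lower value in ATF4 BKO was fixed by the filter and Ckb is the 1 member of the other 8.

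Levels between genes were compared in TPM, the share of transcripts after division by their length. Ckb was the most abundant member at a mean of 535 TPM over the 5 libraries, above 98.5% of the genes tested. Gyk followed at 222 TPM and Atp2a2 at 141 TPM. Alpl at 39.4 TPM and Slc6a8 at 22.4 TPM were intermediate. Gamt at 3.33 TPM, Gatm at 1.09 TPM and Ryr2 at 0.610 TPM were scarce, with Ryr2 above 14.9% of the genes tested. Ckmt2 had no stable place in this order, since its mean of 6.51 TPM came almost wholly from WT 2. Alpl was above Slc6a8 within each library, although their values overlapped between libraries. Gatm and Ryr2 changed order between libraries. Gyk was above Atp2a2 in all 5 libraries.

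**Figure D1:**
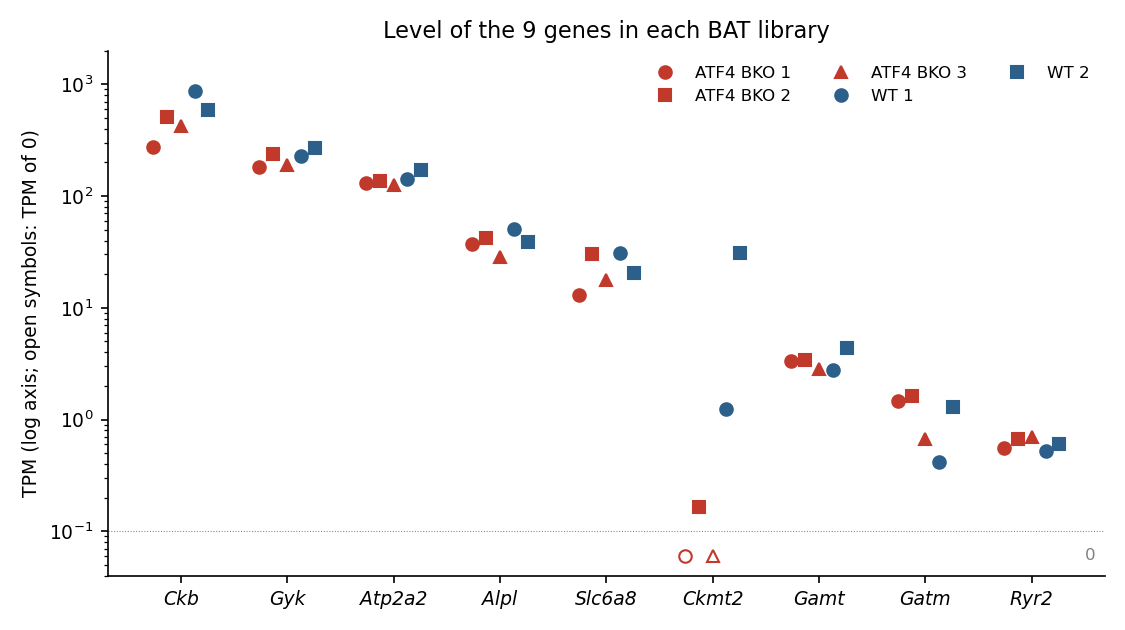
TPM (log axis) of the 9 genes in each of the 5 libraries, ordered by mean TPM, with ATF4 BKO libraries in red, WT libraries in blue and open symbols for a TPM of 0. Ckb lay below both WT libraries in all 3 ATF4 BKO libraries, Ckmt2 ranged from 0 in ATF4 BKO 1 and 3 to 31.1 in WT 2, Atp2a2 lay below in TPM though not in CPM, and the groups of the other 6 genes overlapped. Of all genes tested, 24.9% lay below both WT libraries in TPM and 3.02% above.

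The enzymes of creatine synthesis were expressed at low levels in both genotypes. Gatm (ENSMUSG00000027199.14, chr2:122594467-122611303, minus strand, GRCm38) encodes the amidinotransferase that makes guanidinoacetate from arginine and glycine, the first step of the pathway. Gatm was at 1.46, 1.62 and 0.669 TPM in the ATF4 BKO libraries and at 0.421 and 1.29 TPM in the WT libraries. The lowest value was in WT 1, and WT 2 lay within the ATF4 BKO values, so the groups overlapped. The fitted log2 fold change of Gatm was 0.77 ± 0.58 (SE; edgeR adjusted p = 0.930), and it was of opposite sign within the 2 name prefixes, 1.86 in S1 and -0.70 in S2. It was 0.25 without WT 1 and 1.61 without WT 2, and 2.59 when the muscle marker level of each library, described beside Ckmt2, entered the fit.

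Gamt (ENSMUSG00000020150.13, chr10:80258151-80261012, minus strand) encodes the methyltransferase that completes creatine. Gamt was at 3.32, 3.40 and 2.81 TPM in the ATF4 BKO libraries and at 2.75 and 4.38 TPM in the WT libraries. WT 1 was the lowest and WT 2 the highest of the 5, with every ATF4 BKO library between them. Its log2 fold change was -0.042 ± 0.34 (SE; edgeR adjusted p = 0.989), with a 95% interval from -0.86 to 0.78. It was of opposite sign within the name prefixes, 0.45 in S1 and -0.59 in S2. The 95% interval of Gatm ran from -0.65 to 2.19. Gatm counted 24 to 79 estimated reads per library and Gamt 52 to 92.

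Slc6a8 (ENSMUSG00000019558.14, chrX:73673150-73682502, plus strand) encodes the creatine transporter. Its level was 13.1, 30.1 and 17.9 TPM in the ATF4 BKO libraries and 30.7 and 20.3 TPM in the WT libraries. ATF4 BKO 2 matched the higher WT library, and the lowest value was in ATF4 BKO 1, the library that had Xist counts. The log2 fold change was -0.30 ± 0.34 (SE; edgeR adjusted p = 0.942), and without ATF4 BKO 1 it was -0.086. It was 0.059 without WT 1, -0.60 without WT 2 and -0.62 without ATF4 BKO 2. Within the name prefixes it was -0.61 in S1 and -0.092 in S2. Counted over its protein-coding transcripts alone, it was -0.57.

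Ckb (ENSMUSG00000001270.9, chr12:111669361-111672338, minus strand) encodes the brain-type creatine kinase, which charges creatine with phosphate from ATP and has been tied to the creatine cycle of thermogenic fat. Its level was 272, 515 and 423 TPM in the ATF4 BKO libraries and 868 and 595 TPM in the WT libraries. Every ATF4 BKO library was below both WT libraries, but the gap was narrow between ATF4 BKO 2 and WT 2. In CPM, counts scaled to the library's depth with edgeR's TMM factors, Ckb was at 469 ± 116 in ATF4 BKO (SD, n = 3) and at 757 ± 224 in WT (SD, n = 2), and the lower WT library was 1.07 times the highest ATF4 BKO library. The log2 fold change was -0.69 ± 0.28 (SE), which is 61.9% of the WT level, with a 95% interval from -1.38 to -0.00057. The unadjusted edgeR p was 0.0499, the adjusted edgeR p 0.911 and the adjusted DESeq2 p 0.659, so the difference did not pass the test.

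The size of the Ckb difference rested most on WT 1, the highest library. It was -0.34 without WT 1 and -0.98 without WT 2. It was -1.07 within prefix S1 and -0.24 within prefix S2. In bulk tissue, fewer cells that express a gene and less of its RNA per cell cannot be told apart, here and in each result that follows. Of the 13 brown adipocyte markers, 8 had positive and 5 negative log2 fold changes, with a median of 0.17, and Ucp1 had 0.17 ± 0.24 (SE; edgeR adjusted p = 0.953). Their part in the Ckb values was not tested.

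Ckmt2 (ENSMUSG00000021622.3, chr13:91853387-91876885, minus strand) encodes the sarcomeric creatine kinase of mitochondria, best known from heart and skeletal muscle. It had 0, 5 and 0 estimated counts in ATF4 BKO mice 1, 2 and 3, 42 in WT 1 and 1068 in WT 2. These counts correspond to 0, 0.164 and 0 TPM in ATF4 BKO and to 1.25 and 31.1 TPM in WT. All ATF4 BKO libraries were at or near 0, and WT 2 was 23.7 times WT 1 in CPM. The fitted log2 fold change was -7.96 ± 1.68 (SE), with an unadjusted edgeR p of 0.00309, an adjusted edgeR p of 0.704 and an adjusted DESeq2 p of 0.210. Its size rested on the 5 counts of ATF4 BKO 2, the only ones in that group. It was -11.9 without that library and -3.02 with limma on log2(TPM + 1). Without either WT library, Ckmt2 no longer had 10 counts in 2 libraries and was not tested.

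Ckmt2 moved with markers of skeletal muscle fibres. Of 22 such genes, 21 were tested and all 21 had negative log2 fold changes, with a median of -6.34. Of these, Mybpc1, Myh2, Myh7 and Tcap reached the count minimum only in the WT libraries, so the filter fixed their direction. The other 17 had a median of -5.51. The summed level was 22.0, 33.6 and 15.6 TPM in the ATF4 BKO libraries, 92.0 TPM in WT 1 and 1818 TPM in WT 2, and Acta1, which encodes the actin of skeletal muscle, was the most abundant. None of the 22 was at 0 in every library. From WT 1 to WT 2 the CPM of Acta1 was 19.6 times higher, that of the muscle creatine kinase gene Ckm 32.2 times and that of the muscle markers a median of 19.6 times (5.54 to 36.2), so that the 23.7 of Ckmt2 lay within their range. Ckmt2 counts were 20.9% of Ckm counts in WT 1 and 15.4% in WT 2, and 0%, 5.85% and 0% in ATF4 BKO 1, 2 and 3, where Ckm had 4, 85 and 11 counts. Across the 5 libraries the log2 CPM of Ckmt2 and the mean log2 CPM of the muscle markers had a Pearson correlation of 0.996, given as a description of libraries that share these 2 groups.

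The mean log2 CPM of the muscle markers was -1.28, 0.00273 and -1.79 in ATF4 BKO 1, 2 and 3 and 1.6 and 5.69 in WT 1 and 2. This level did not overlap between the groups, so a fit with both terms separates it from genotype poorly. When the fit took the mean muscle marker level of each library as a further term, the log2 fold change of Ckmt2 was -1.60 ± 0.87 (SE). For Ckb it was -1.08 in that fit, and its correlation with the muscle markers was 0.47. WT 2 had 0.654 times the Ckb CPM of WT 1, while it had the higher level of each muscle marker tested. Markers of heart muscle were nearly absent, with 1 of 8 passing the count filter. Other cell types of the tissue differed less, with median log2 fold changes of 0.25 for smooth muscle, 0.45 for endothelial, 0.41 for leukocyte, 0.67 for Schwann cell and -0.77 for white adipocyte markers, over 4 or 5 tested genes each. The leukocyte median was 2.31 within prefix S1 and -0.98 within S2. The part of muscle RNA in the Ckmt2 values was not tested beyond this fit.

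The sequences upstream of Ckb and Ckmt2 are shown because these were the 2 members whose groups did not overlap in CPM, a choice made after the values were seen. They are RefSeq promoter windows of GRCm38.p6, cut to leave out transcribed bases, 5′ to 3′ along the gene's strand. The Ckb window is chr12:111672339-111672588 on the minus strand, 250 bases long, with TATAAA and CCAAT in capitals.
Ckb: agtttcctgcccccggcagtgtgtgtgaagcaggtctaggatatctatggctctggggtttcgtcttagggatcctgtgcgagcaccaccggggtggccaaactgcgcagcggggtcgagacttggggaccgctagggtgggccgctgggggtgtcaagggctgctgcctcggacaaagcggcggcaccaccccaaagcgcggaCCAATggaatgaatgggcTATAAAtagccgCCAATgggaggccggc
The Ckmt2 window is chr13:91876924-91877135 on the minus strand, 212 bases long, with E-boxes (CANNTG, the letters bound by MyoD and other helix-loop-helix factors) in capitals.
Ckmt2: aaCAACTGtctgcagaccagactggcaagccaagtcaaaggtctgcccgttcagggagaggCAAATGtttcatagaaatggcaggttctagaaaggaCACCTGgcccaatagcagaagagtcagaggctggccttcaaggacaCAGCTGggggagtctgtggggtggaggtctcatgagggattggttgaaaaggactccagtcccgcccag
Each motif was searched on both strands, and no match overlapped a match of another motif in these windows. Ckb held TATAAA at 28 bases and CCAAT at 46 and 16 bases upstream of the start, motifs that 12.4% and 33.8% of 32851 RefSeq promoters of 250 bases held at least once. Ckb held no E-box. Ckmt2 also held CCAAT at 145 and 69 bases upstream, left in lower case above, and Gatm held 2 such matches. Ckmt2 held 4 E-boxes, where 61.0% of promoter windows of 212 bases held at least 1 and 2.40% held at least 4. The element TGATGNAA, bound by ATF4 with C/EBP factors, and the cAMP response element TGACGTCA were not found in the windows of the 7 members that had one, and 3.45% and 1.55% of all promoters of 250 bases held them.

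**Figure D2:**
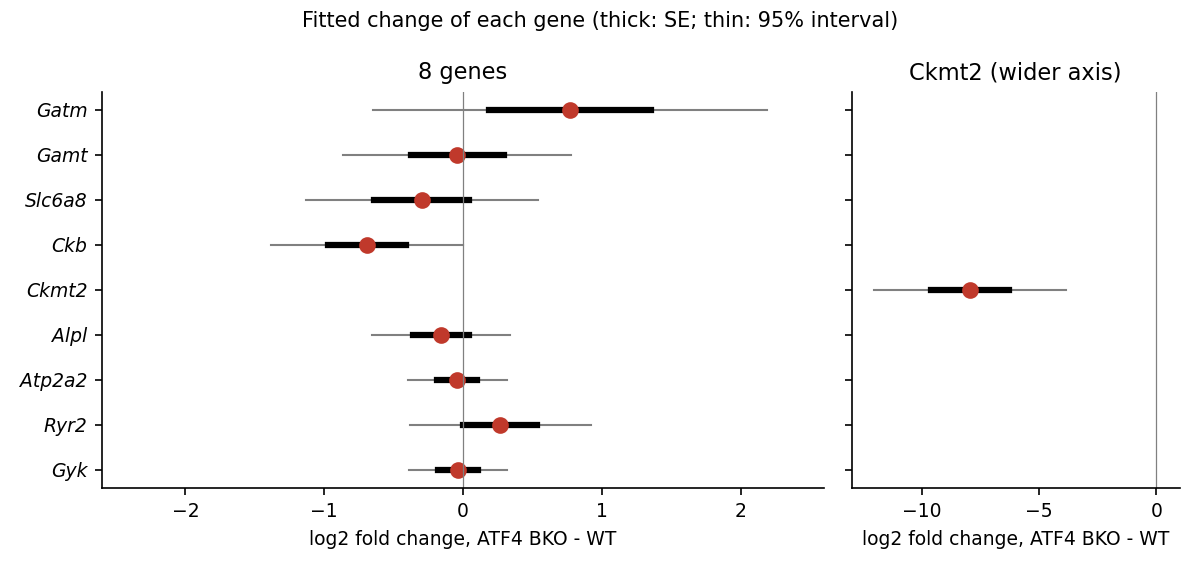
Log2 fold change (ATF4 BKO minus WT) of the 9 genes from edgeR, with thick bars for the SE and thin bars for the 95% interval; Ckmt2 has its own wider axis. The intervals of 7 genes span 0, that of Ckb ends at -0.00057 and that of Ckmt2, whose direction was fixed by the count filter, runs from -12.1 to -3.87, and none of the 9 passed adjustment over all genes.

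Set side by side per length, Ckb supplied nearly all creatine kinase RNA of BAT except in WT 2. The 4 creatine kinase genes summed to 273, 520 and 423 TPM in the ATF4 BKO libraries and to 879 and 956 TPM in the WT libraries. Ckb made up 99.9%, 99.0% and 99.9% of that sum in ATF4 BKO and 98.7% in WT 1, but 62.2% in WT 2. The remainder in WT 2 was mainly Ckm at 330 TPM, which was at 9.94 TPM in WT 1 and at 0.0885, 4.56 and 0.156 TPM in ATF4 BKO. The ubiquitous mitochondrial creatine kinase gene Ckmt1 had 1 to 9 estimated counts per library and failed the count filter.

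Alpl (ENSMUSG00000028766.10, chr4:137741733-137796384, minus strand) encodes the phosphatase that closes the creatine cycle by splitting phosphocreatine. It was at 37.4, 41.9 and 28.3 TPM in the ATF4 BKO libraries and at 50.3 and 38.8 TPM in the WT libraries. WT 1 was the highest and ATF4 BKO 3 the lowest, and ATF4 BKO 2 lay above WT 2. The log2 fold change was -0.16 ± 0.20 (SE; edgeR adjusted p = 0.945), with a 95% interval from -0.66 to 0.33. It was -0.22 within prefix S1 and -0.25 within prefix S2, but 0.077 without WT 1, -0.37 without WT 2 and -0.024 without ATF4 BKO 3.

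The calcium pump was among the most even of the members. Atp2a2 (ENSMUSG00000029467.15, chr5:122453513-122502225, minus strand) was at 131, 137 and 126 TPM in ATF4 BKO and at 141 and 172 TPM in WT. In TPM the 2 WT libraries were the highest, and in CPM, where Atp2a2 was at 539, 479 and 503 in ATF4 BKO and at 487 and 558 in WT, the groups overlapped. The log2 fold change was -0.044 ± 0.15 (SE; edgeR adjusted p = 0.980). Its 95% interval ran from -0.40 to 0.31.

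Ryr2 (ENSMUSG00000021313.16, chr13:11553102-12106945, minus strand), the calcium release channel named in the cycle, had the lowest mean TPM of the members, although Ckmt2 was lower in each ATF4 BKO library and Gatm in ATF4 BKO 3 and WT 1. It was at 0.559, 0.664 and 0.701 TPM in ATF4 BKO and at 0.521 and 0.605 TPM in WT. The values of the 2 groups interleaved. The log2 fold change was 0.27 ± 0.27 (SE; edgeR adjusted p = 0.942), and it rested on 78 to 136 estimated counts per library. It was 0.11 without ATF4 BKO 3, 0.15 without WT 1 and 0.40 without WT 2. Ryr2-201, of 16814 bases, held 12.6% to 16.7% of Ryr2 TPM and Ryr2-202, of 16813 bases, 13.6% to 17.8%. Ryr2-207, of 3086 bases, held 24.4% to 41.4%, so the summed TPM is not that of the long transcripts alone. Of the IP3 receptors, the other release channels of the endoplasmic reticulum, Itpr1 and Itpr2 were far more abundant. Itpr3 was nearer to Ryr2, at 2.0, 3.1 and 2.9 TPM in ATF4 BKO and at 1.6 and 2.3 TPM in WT. Itpr1 was at 21.5, 23.9 and 22.1 TPM in ATF4 BKO and at 24.4 and 30.3 TPM in WT, and Itpr2 was at 14.4, 20.7 and 23.9 TPM against 25.7 and 28.2 TPM. In CPM the groups overlapped for both genes. The log2 fold change was -0.049 ± 0.17 (SE; edgeR adjusted p = 0.98) for Itpr1. For Itpr2 it was -0.30 ± 0.26 (SE; edgeR adjusted p = 0.936).

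The SERCA and ryanodine receptor families showed the same contrast between the 2 WT libraries as the creatine kinases. Atp2a2 made up 94.8%, 89.5% and 92.4% of SERCA TPM in ATF4 BKO, 69.6% in WT 1 and 46.3% in WT 2. In WT 2 the gene of the fast-twitch muscle pump, Atp2a1, was at 184 TPM, against 6.49 TPM in WT 1 and at most 2.78 TPM in ATF4 BKO. In WT 1 the share was lowered by Atp2a3 instead, at 54.9 TPM, against 15.8 TPM in WT 2 and 6.65, 13.2 and 10.3 TPM in ATF4 BKO. Ryr1, the release channel of skeletal muscle, had 2476 estimated counts in WT 2, 114 in WT 1 and 20, 58 and 16 in ATF4 BKO. Ryr2 was 8.41% of ryanodine receptor TPM in WT 2, 55.9% in WT 1 and 80.6%, 55.9% and 78.7% in ATF4 BKO.

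**Figure D3:**
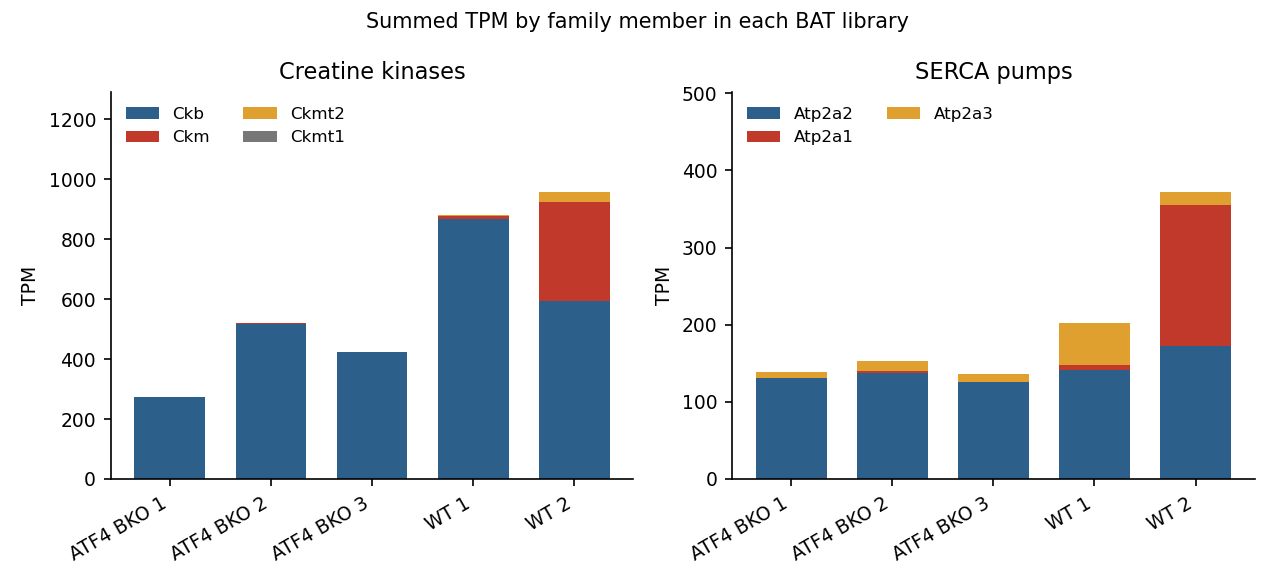
Stacked TPM of the 4 creatine kinase genes (left) and the 3 SERCA genes (right) in each library. Ckb and Atp2a2 make up most of each bar, except that Ckm reaches 330 TPM and Atp2a1 184 TPM in WT 2, and Atp2a3 reaches 54.9 TPM in WT 1.

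Gyk (Gk, ENSMUSG00000025059.16, chrX:85701937-85776819, minus strand) encodes glycerol kinase, which makes glycerol 3-phosphate. It was at 183, 237 and 190 TPM in ATF4 BKO and at 228 and 272 TPM in WT. ATF4 BKO 2 lay above WT 1, so the groups overlapped. In CPM, Gyk was at 547, 599 and 573 in ATF4 BKO and at 549 and 627 in WT, and the log2 fold change was -0.037 ± 0.14 (SE; edgeR adjusted p = 0.981), with a 95% interval from -0.39 to 0.32. Without ATF4 BKO 1, the library with Xist counts, the value was -0.0046. Gk made up 98.6% to 99.2% of the TPM of the 4 glycerol kinase genes in each library, with Gk5 at most 3.15 TPM.

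Counted together, 2 of the 9 members, Ckb and Ckmt2, had every ATF4 BKO value below both WT values in CPM, and 0 had every value above. Over all genes tested, 10.6% were below in this way and 8.95% above. As the filter fixed the direction of Ckmt2, Ckb is the 1 member of the other 8 that the count describes. In TPM the count below was 3, with Atp2a2 added, where 24.9% of all genes tested lay below and 3.02% above. The median log2 fold change of the members was -0.044, beside 0.0077 over all genes tested.

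The isoforms behind the gene sums were compared as shares of each gene's TPM, which Kallisto estimates per transcript. Most of Atp2a2 was split between 2 coding transcripts, Atp2a2-202, which codes for 998 residues, and Atp2a2-201, which codes for 1044. Atp2a2-202 was 45.5%, 41.1% and 43.7% of Atp2a2 in ATF4 BKO and 50.0% and 47.5% in WT, so that each ATF4 BKO library was below both WT libraries. An exact two-sided permutation test of the difference of means over libraries gave p = 0.2, the smallest this design allows. In all, 34 transcript shares were compared in this way and none can pass an adjusted threshold, so such differences are given as descriptions. The groups did not overlap for 4 of the 34. Atp2a2-202, Slc6a8-203 and Ckb-201 were lower in ATF4 BKO and a retained-intron transcript of Slc6a8 was higher. The share over all transcripts was not computed, so the count of 4 is not read as a result about these genes. Atp2a2-201 was 32.5%, 45.1% and 35.2% in ATF4 BKO against 34.6% and 38.1% in WT, which overlapped.

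Slc6a8 was spread over several transcripts. The coding transcript Slc6a8-203 was 20.9%, 28.4% and 29.2% of Slc6a8 TPM in ATF4 BKO and 34.7% and 50.0% in WT, again with no overlap (exact permutation p = 0.2). The retained-intron transcript, 527 bases long, went the other way, at 3.53%, 4.30% and 5.93% against 1.22% and 2.43%, on at most 10.1 counts per library. A transcript marked for nonsense-mediated decay, Slc6a8-202, averaged 27.9% ± 9.69 in ATF4 BKO (SD, n = 3) and 16.4% ± 12.1 in WT (SD, n = 2), and its groups overlapped. For Gyk, Gk-201 held 28.3%, 38.6% and 36.0% in ATF4 BKO and 34.1% in each WT library, and the retained-intron transcript Gk-204 held 15.8%, 22.5% and 14.5% against 27.9% and 22.4%. Ckb and Ckmt2 were nearly single-transcript genes. Ckb-201 was 98.8% to 99.0% of Ckb in ATF4 BKO and 99.5% in each WT library, and Ckmt2-201 was all of Ckmt2 wherever it was detected.

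**Figure D4:**
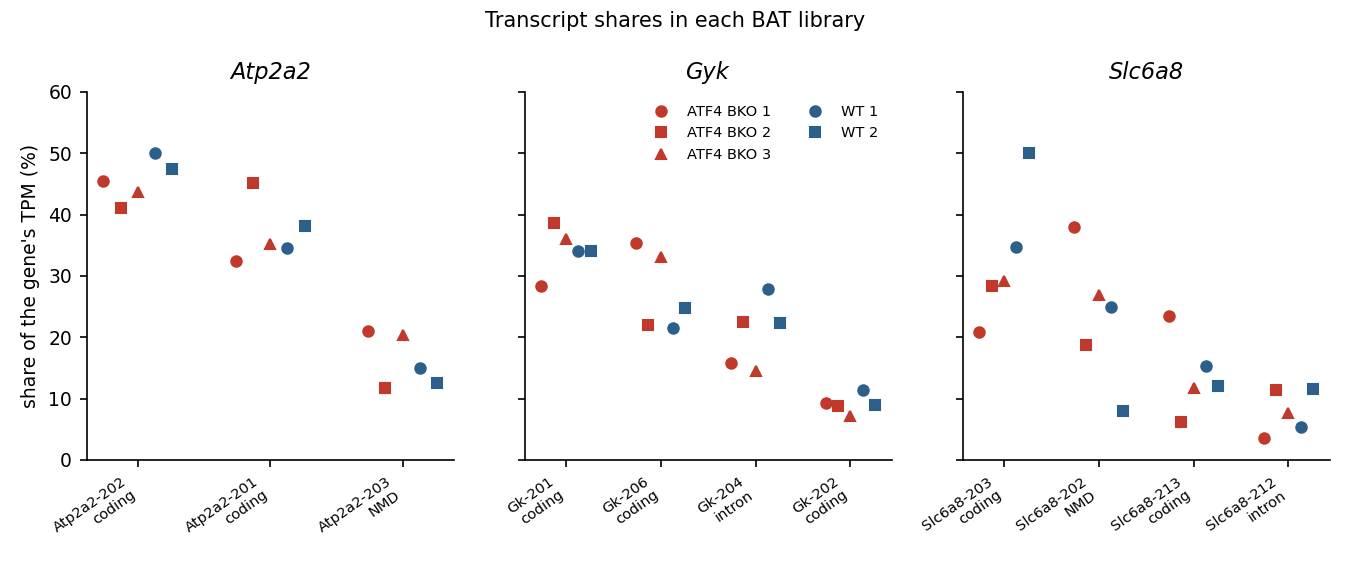
Share of the gene's TPM (%) held by the most abundant transcripts of Atp2a2, Gyk and Slc6a8 in each library, with the annotated kind under each name (NMD, nonsense-mediated decay; intron, retained intron). Atp2a2-202 and Slc6a8-203 are lower in the 3 ATF4 BKO libraries than in both WT libraries, and the other transcripts shown overlap between the groups.

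The genes that feed the cycles were described from lists chosen by function. Of 16 genes that supply arginine, glycine and methyl groups for creatine synthesis, 15 were tested, 7 with positive and 8 with negative log2 fold changes and a median of -0.10. In 1 of the 15 every ATF4 BKO value was below both WT values and in 2 every value was above, beside 10.6% and 8.95% of all genes. Of the 15, edgeR called 0 and DESeq2 called 1 higher, beside 0.128% of all genes. That gene was Gnmt, which encodes glycine N-methyltransferase, an enzyme that competes with GAMT for S-adenosylmethionine. Gnmt was at 14.1, 11.9 and 15.0 CPM in ATF4 BKO and at 5.67 and 4.75 CPM in WT, with every ATF4 BKO library above both WT libraries. Its log2 fold change was 1.39 ± 0.20 (SE), with an adjusted p of 0.671 in edgeR and of 1.7e-05 in DESeq2.

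Shmt2, whose mitochondrial enzyme interconverts serine and glycine, was at 23.4, 23.3 and 24.6 CPM in ATF4 BKO and at 50.2 and 26.7 CPM in WT. The ATF4 BKO libraries were nearly equal and lay below both WT libraries, of which WT 1 stood well above the rest. Its log2 fold change was -0.69 ± 0.26 (SE; edgeR adjusted p = 0.911), and it was -0.15 without WT 1, -1.09 without WT 2 and -0.12 within prefix S2. Of the other creatine kinases and carriers, Ckm, described above, was the 1 of 3 tested genes with no overlap, and it lay below, as did 10.6% of all genes. Slc6a6, the taurine transporter gene, was at 275, 431 and 385 CPM in ATF4 BKO and at 244 and 294 CPM in WT, which overlapped.

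Among 12 other calcium pumps, release channels and SERCA peptides, 7 were tested, 6 had negative log2 fold changes and the median was -0.58. DESeq2 called Ryr1 lower, with an adjusted p of 0.0451. It called 0.608% of all genes lower. In 2 of the 7, Atp2a1 and Ryr1, every ATF4 BKO value was below both WT values, and in 1, Itpr3, every value was above, beside 10.6% and 8.95% of all genes. Atp2a1 and Ryr1 were highest in WT 2, as the skeletal muscle markers were, while Atp2a3 was highest in WT 1. With the muscle marker level in the fit the median of the list was 0.0052 and the log2 fold change of Ryr1 was 0.92 in place of -5.04. Phospholamban (Pln) and sarcolipin (Sln), small proteins that restrain SERCA, were close to absent, with Pln at 0.285 to 0.885 CPM and Sln at 0, 0 and 0 counts in ATF4 BKO and 3 and 16 in WT. Of 31 partners of the calcium cycle, 30 were tested, 17 were above 0 and 13 below, and the median was 0.011. DESeq2 called Casq1 and Hrc lower, both of them genes of the muscle calcium store, and the 4 genes whose ATF4 BKO values were below both WT values were Casq1, Hrc, Trdn and Jph2, each highest in WT 2. That is 4 of 30, where 10.6% of all genes tested lay below, and Orai1 was the 1 gene above, where 8.95% did. Hrc and Trdn reached the count minimum only in the WT libraries, so the filter fixed their direction and their place in this count. Calr, the calcium buffer of the endoplasmic reticulum, had a log2 fold change of -0.068, the store-operated entry genes Stim1 and Orai1 had 0.13 and 0.081, and the mitochondrial uniporter gene Mcu had -0.16. Adra1a, the adrenergic receptor that can raise cytosolic calcium in brown adipocytes, was at 76.3, 57.0 and 93.5 CPM in ATF4 BKO and at 64.9 and 68.7 CPM in WT.

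Around Gyk, 22 genes of glycerol handling and fatty acid re-esterification were listed and 20 tested, 13 of them above 0 and 7 below, with a median of 0.13. Neither edgeR nor DESeq2 called any. In 5 genes every ATF4 BKO value was above both WT values, namely Aqp7, Pck1, Pnpla2, Gpat4 and Dgat1, and in 2, Gpat3 and Lpin2, every value was below, where 8.95% of all genes tested lay above and 10.6% below. Gpat4, which encodes an enzyme that acylates glycerol 3-phosphate, was at 534, 474 and 554 CPM in ATF4 BKO and at 335 and 387 CPM in WT. The 3 ATF4 BKO libraries lay well above both WT libraries. Its log2 fold change was 0.53 ± 0.15 (SE), with an adjusted p of 0.831 in edgeR and of 0.150 in DESeq2. Pck1, which encodes the key enzyme of glyceroneogenesis, was at 4205, 3295 and 4318 CPM against 2563 and 3215 CPM, a log2 fold change of 0.45 ± 0.22 (SE; edgeR adjusted p = 0.911).

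**Figure D5:**
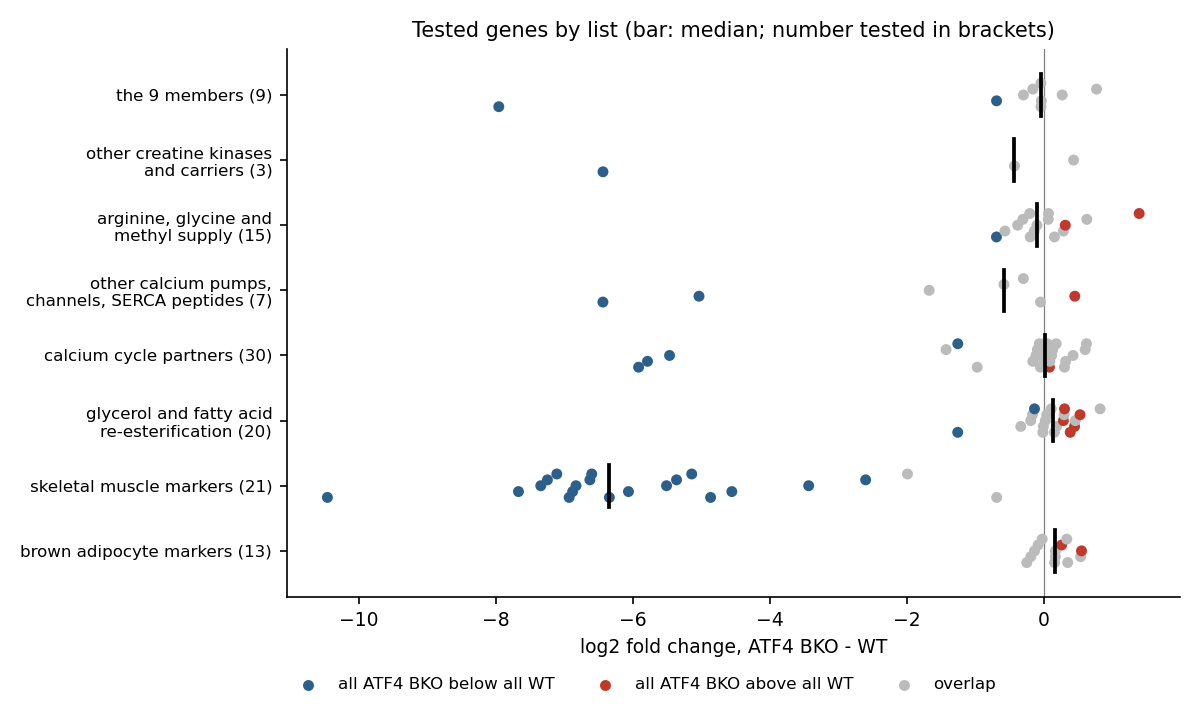
Log2 fold change (ATF4 BKO minus WT) of each tested gene by list, with black bars for the medians and colours for genes whose ATF4 BKO values were all below (blue) or all above (red) both WT values. The member median is -0.044 and the skeletal muscle marker median -6.34, and the far-left points of the creatine kinase and calcium lists are Ckm, Atp2a1, Ryr1, Casq1, Hrc and Trdn.

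The genes with the most similar pattern to each member were taken by Pearson correlation of log2 CPM over the 5 libraries. They were sought among the other genes with a mean of at least 5 TPM, 8933 for Gatm, Gamt and Ryr2 and 8932 for the remaining members. Ckmt2 was closest to Ldb3 at 0.999 and Tnnc2 at 0.999, both of which encode proteins of the muscle sarcomere, and to Parp2 at 0.994. Ckb was closest to Nrd1 at 0.997, Frmd8 at 0.997 and Ankrd49 at 0.995. Gyk had the fewest close neighbours, with 19 genes at 0.95 or more, led by Ep300 at 0.991, and Slc6a8 the most, with 182 led by Cpsf6 at 0.998. With 5 libraries, correlations of this size are common, and they describe only these libraries.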

How the data were processed

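RNA of interscapular BAT was sequenced from TruSeq stranded mRNA libraries on a HiSeq4000. The authors deposited, for each library, estimated counts and TPM per transcript made with Kallisto 0.45.0 (mm10 per the labels). Of 141450 transcripts, 138191 matched GENCODE M21 (GRCm38), and the unmatched ones held 1.16% to 1.29% of counts. Estimated counts were summed per gene and rounded, and TPM was summed per gene. The 5 libraries differed from each other by more than sampling noise.

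Groups came from the sample labels. Counts were tested with edgeR 4.0.16 (quasi-likelihood, TMM, genotype only, at least 10 counts in 2 libraries, Benjamini-Hochberg threshold 0.05; R 4.3.3). DESeq2 1.42.0, limma 3.58.1 and other settings were alternatives. The SE was the log2 fold change over the square root of F, and 95% intervals used a t quantile with 6.06 degrees of freedom. The code was tested on simulated data. Intervals are for the difference between the group means, with the spread between these mice entering through the SE. The p-values rest on 3 and 2 animals.

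The members and lists were chosen with earlier results of these data known. Named genes were the members, the listed genes and the 3 genes most like each member. Atf4, Xist, Uty, Kdm5d, Eif2s3y, Ddx3y and Gm12892 were named as checks, and Cacna1i after its values were seen. Of 161 listed symbols, 159 matched; Strit1 and Erln did not. Of the 31-base words in Ckb transcripts, 17.5% occur in other genes, chiefly the pseudogene-like Gm12892, which had few counts; for Atp2a2 the share was 5.42%. Promoters and motif searches, of which TATAAA and CCAAT were added after the data were seen, used RefSeq windows, matched for 7 members.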

Additional observations from a re-analysis of the deposited data

How the results depend on the processing

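None of the 9 members passed an adjusted p under 0.05 in any alternative tried, where adjusted p ranged from 0.33 to 1 for Ckb and from 0.0661 to 0.997 for Ckmt2. The genes called across the genome numbered 1 with edgeR, 121 with DESeq2 and 168 when the muscle level entered the fit (the muscle covariate). They numbered 8 with no filter beyond 1 count, 2 with limma on log2(TPM + 0.1) and 0 with limma on log2(TPM + 1), where 1461 genes had an unadjusted p under 0.05, and 0 to 23 when 1 library was left out, 23 without WT 1. The replicate numbers pair no animals in the labels, and deviations of same-numbered libraries correlated at 0.0472 and 0.20. With the replicate block edgeR called 0 genes, 711 having an unadjusted p under 0.05. With the name prefix as a block it called 0, with 877 such genes.

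The median of the 9 members (-0.044) was -0.30 with limma at either pseudocount and 0.10 with the muscle covariate. It was 0.0615 within prefix S1 and -0.24 within prefix S2. It was -0.043 with Ckmt2 left out (added after the data were seen) and -0.089 to 0.047 with 1 library left out. The median of all genes tested, 0.0077, was -0.17 with limma at 0.1, -0.12 at 1 and -0.099 on library totals, so part of each list's shift in these settings is shared by all genes. The cause of the other shifts was not tested. The members without overlap numbered 2, and 2 to 7 when 1 library was left out, 7 of 8 without WT 2, 4 of 8 without WT 1 and 4 of 9 without ATF4 BKO 2. Of all genes tested, 30.7% lay below and 27.2% above without WT 2, 18.5% and 19.3% without WT 1, and 19.9% and 19.6% without ATF4 BKO 2.

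Several signs turned, and not only those of values close to 0. Atp2a2 was 0.10 with the muscle covariate, 0.061 within prefix S1 and -0.12 to 0.045 with 1 library left out. Gamt was 0.10 with the replicate block, 0.73 with the muscle covariate, 0.45 within S1 and -0.34 to 0.35. Gyk was 0.026 from protein-coding transcripts, 0.19 with the muscle covariate, 0.061 within S1 and -0.12 to 0.048. Gatm was -0.70 within S2. Alpl spanned -0.37 to 0.077 and Slc6a8 -0.62 to 0.059 with 1 library left out. Ckb and Ryr2 kept their sign in the alternatives tried. Ckmt2 was negative wherever it was tested, but the count filter fixed its direction in all settings that used it, so its unchanged sign there shows no stability. With no filter beyond 1 count Ckmt2 was -7.96, with its smallest adjusted p, 0.0661 (edgeR), and ATF4 BKO 2 again held the only counts of its group. With 1 library left out, Ckb was -0.98 to -0.34, Ryr2 0.11 to 0.40, Gatm 0.25 to 1.61 and Ckmt2 -11.9 to -7.35. Ckmt2 was -1.60 with the muscle covariate, -5.56 and -3.02 with limma at 0.1 and 1 and -6.65 with the prefix block.

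The median of the arginine, glycine and methyl list was -0.22 on library totals, -0.29 and -0.27 with limma at 0.1 and 1, 0.035 within S2 and -0.17 to 0.057 with 1 library left out. That of the calcium partners was -0.098, -0.20 and -0.19 in the same 3 settings, 0.23 with the muscle covariate, 0.093 within S1, -0.14 within S2 and -0.033 to 0.11. That of the other calcium pumps and channels was -1.13 without the filter, 0.0052 with the muscle covariate, -0.24 within S2 and -1.0 to -0.24. The median of the glycerol and re-esterification list was -0.044 with limma at either pseudocount and 0.017 on library totals. It was 0.0395 with the replicate block, 0.034 with the muscle covariate and 0.079 to 0.22 with 1 library left out. Gatm, Gamt and Ryr2 had 24 to 136 counts per library, and their standard errors, 0.58, 0.34 and 0.27, were not all above that of Ckb, 0.28, which had at least 7666 counts per library.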
